A study of Homo sapiens with 4 samples.

Results

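The HSP70 and HSP110 chaperones were followed here as 10 genes, chosen by symbol from a list of HSP70 proteins of the cytosol and mitochondria and of their HSP110 relatives, out of 61806 genes in the count table. All 10 symbols were found, each in 1 row, and all 10 had at least 10 read counts in at least 1 library of each line. The list held the stress-inducible HSP70 genes HSPA1A, HSPA1B and HSPA6, the constitutive cytosolic gene HSPA8, the tissue-restricted genes HSPA1L and HSPA2, the mitochondrial gene HSPA9, and the HSP110 genes HSPA4, HSPA4L and HSPH1. No measured value was used to choose them by rule, but results of these data were known when the list was drawn up.

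Poly(A) RNA was sequenced from wild-type MDA-MB-231 cells, referred to as the breast cancer line, and wild-type MDA-MB-435 cells, given by the labels as melanoma and referred to as the melanoma line. Each line was given as a control library and as a library of cells treated with CPYPP for 6 h, at 10 µM by a protocol that speaks of MDA-MB-435 alone. CPYPP is a small molecule known as an inhibitor of DOCK proteins, which activate the small GTPase Rac. There was 1 library per condition and 4 in all, so the spread between cultures was not measured, and what the control cells received is not given in the sources used here. Reads on genes came to between 17196385 and 22663954 per library, and the 10 most abundant genes held 6.09% to 6.42% of them. The mitochondrial chromosome held 5.34% and 4.73% of counts in the control libraries and 4.21% and 3.55% in the CPYPP libraries, the breast cancer line being given first. Of 8 melanocyte markers, 6 reached 10 counts in each MDA-MB-435 library. SOX10 had 707 or more counts there and the pigment enzyme gene TYR no more than 3, while SOX10 had at most 1 count in MDA-MB-231. DCT, S100B and TYRP1 were also higher in the melanoma line, and MLANA was at 14 counts or fewer in every library. MITF and PMEL did not mark the melanoma line. For the control libraries, MITF had 1585 counts in the breast cancer line against 1405, and PMEL 34 against 13. After CPYPP the counts were 690 against 809 for MITF and 29 against 4 for PMEL. MITF had the highest count of the 8 in both libraries of the breast cancer line. The 8 melanocyte markers summed to 72.8 and 44.6 CPM (scaled to 1000000 counts per library) without and with CPYPP in the breast cancer line and to 261 and 143 CPM in the melanoma line, and the part of this or of the mitochondrial share in the results was not tested. Of 7 breast line markers, EPCAM and KRT19 were at 287 or more counts in MDA-MB-231 and at 4 or fewer in MDA-MB-435. KRT8, KRT18 and EGFR were also higher in MDA-MB-231. VIM and CD44 were higher in MDA-MB-435, at 98483 against 38484 and 36689 against 27537 counts in the control libraries. The 7 summed to 4622 CPM in the control library of the breast cancer line and 5973 CPM in that of the melanoma line. Blood and germ cell markers summed to at most 1.65 CPM in any library, with DDX4, DAZL and HBB at 0 throughout.

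HSP70 proteins bind exposed hydrophobic stretches of unfolded proteins and release them again in a cycle driven by ATP. J-domain proteins, the HSP40 family, deliver clients and speed ATP hydrolysis, and HSP110 proteins, which are themselves divergent HSP70s, speed the release of ADP so that the cycle can restart. HSPA8, also called HSC70, does this work in unstressed cells, whereas HSPA1A, HSPA1B and HSPA6 are switched on when proteins misfold. The switch is heat shock factor HSF1, which binds as a trimer to arrays of the short unit GAA or its reverse complement TTC, the heat shock element.

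The promoters of the genes on which the results turn are shown first, because the heat shock element is the known sequence signal of the inducible members. They are the 250 bases before the RefSeq start of each gene (build GRCh38.p14), written in the direction of transcription. Capitals mark every heat shock element found by exact match, either 2 units facing each other (GAANNTTC or TTCNNGAA, each of which reads the same on both strands) or 3 units in a row. The stretches lie at chr6:31815293-31815542 on the plus strand for HSPA1A, chr6:31827488-31827737 on the plus strand for HSPA1B, chr1:161524290-161524539 on the plus strand for HSPA6, chr11:123062137-123062386 on the minus strand for HSPA8 and chr13:31162389-31162638 on the minus strand for HSPH1.
HSPA1A: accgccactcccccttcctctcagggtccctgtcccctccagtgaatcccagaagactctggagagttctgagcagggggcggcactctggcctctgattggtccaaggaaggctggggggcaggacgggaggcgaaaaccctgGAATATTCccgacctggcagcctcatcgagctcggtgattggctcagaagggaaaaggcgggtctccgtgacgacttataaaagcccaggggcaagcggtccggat
HSPA1B: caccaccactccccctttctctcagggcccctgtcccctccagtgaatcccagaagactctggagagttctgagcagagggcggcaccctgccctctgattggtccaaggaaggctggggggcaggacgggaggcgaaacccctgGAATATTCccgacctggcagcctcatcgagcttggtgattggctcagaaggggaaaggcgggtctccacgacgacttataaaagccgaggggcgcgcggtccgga
HSPA6: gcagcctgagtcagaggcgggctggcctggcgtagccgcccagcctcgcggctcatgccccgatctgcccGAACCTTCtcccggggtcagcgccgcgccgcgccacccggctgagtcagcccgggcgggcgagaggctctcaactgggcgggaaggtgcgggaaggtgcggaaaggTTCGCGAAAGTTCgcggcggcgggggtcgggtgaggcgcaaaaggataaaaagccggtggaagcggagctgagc
HSPA8: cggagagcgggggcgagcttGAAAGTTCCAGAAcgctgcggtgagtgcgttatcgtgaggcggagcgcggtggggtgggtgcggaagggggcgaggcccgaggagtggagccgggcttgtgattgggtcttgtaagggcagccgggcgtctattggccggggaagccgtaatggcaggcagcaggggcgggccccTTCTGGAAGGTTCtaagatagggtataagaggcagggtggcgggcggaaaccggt
HSPH1: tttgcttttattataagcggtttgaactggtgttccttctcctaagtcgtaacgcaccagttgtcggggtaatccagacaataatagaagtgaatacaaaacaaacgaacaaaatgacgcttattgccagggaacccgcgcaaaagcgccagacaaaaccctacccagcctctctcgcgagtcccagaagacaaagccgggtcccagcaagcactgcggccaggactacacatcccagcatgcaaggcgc
All 10 genes were matched to RefSeq promoters, 9 with 1 start and HSPA4L with 3, and the windows searched also held the 50 bases after the start. HSPA1A and HSPA1B each carried 1 element of 2 units, from 106 to 99 bases before the start in HSPA1A and from 105 to 98 in HSPA1B, and their 250-base stretches were identical at 235 of 251 aligned positions. HSPA6 carried an element of 3 units from 74 to 62 bases before its start and a separate one of 2 units further upstream. HSPA8 carried 2 elements of 3 units, from 230 to 218 and from 55 to 43 bases before its RefSeq start, which lies 1094 bases downstream of the start in the count table. Elements of 3 units were found in 0.490% of 35116 RefSeq promoters, those of the form GAANNTTC in 6.77% and those of the form TTCNNGAA in 7.74%, the shorter forms being also counted inside the longer one.

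HSPH1 and HSPA4 had no such element in this window, nor did HSPA2 or the first and the third start of HSPA4L. HSPA9 had 1 element of 2 units lying across its start, and the second HSPA4L start had 1 from 170 to 163 bases upstream. HSPA1L, whose product is best known from testis, lies head to head with HSPA1A, with 260 bases between the 2 starts, so the element in its window is the same stretch of DNA as that of HSPA1A. The box CCAAT, searched on both strands and present in 34.6% of promoters, occurred 2 times each in HSPA1A, HSPA1B and HSPA8, and TATAAA, present in 11.5%, occurred 30 to 25 bases before the start in HSPA1A and 29 to 24 in HSPA1B. Only exact units were searched, so an array with an altered unit is missed or counted as shorter, and the promoters cannot be ranked by element. A match gives only the letters in the window, and binding was not measured in these libraries.

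**Figure D1:**
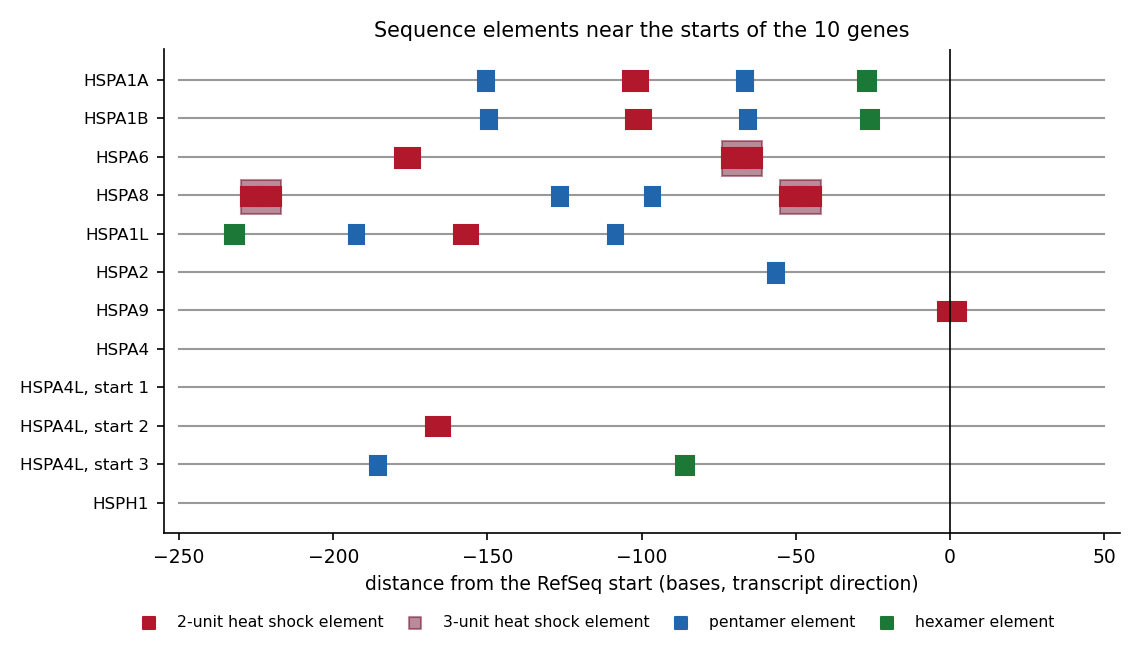
Sequence elements around the RefSeq starts of the 10 genes, plotted as distance in bases from the start (0) in the direction of transcription, 1 line per start. Red boxes are heat shock elements of 2 units, the paler taller boxes behind them mark elements of 3 units, blue boxes are the pentamer CCAAT and green boxes the hexamer TATAAA on either strand. HSPA6 and HSPA8 hold the elements of 3 units, HSPA1A and HSPA1B share 1 layout, and HSPA4 and HSPH1 hold none of the 4.

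The inducible pair HSPA1A and HSPA1B gave the clearest change after CPYPP. HSPA1A (ENSG00000204389, GRCh38 chr6:31815543-31817946, plus strand, 1 exon) had 522 read counts in the control library of the breast cancer line and 16564 in its CPYPP library, and 593 and 50494 in the melanoma line. HSPA1B (ENSG00000204388, chr6:31827738-31830254, plus strand, 1 exon), which begins 9792 bases beyond the end of HSPA1A, had 1181 and 38209 counts in the breast cancer line and 294 and 26838 in the melanoma line. Both CPYPP libraries lay far above both control libraries for either gene. In bulk RNA, more mRNA per cell and more cells with that mRNA cannot be told apart.

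Scaled by TMM-normalised library size, HSPA1A was 43.0-fold higher with CPYPP in the breast cancer line (95% exact binomial interval for counting error 39.4 to 47.0) and 104-fold higher in the melanoma line (96.1 to 113). For HSPA1B the values were 43.8-fold (41.4 to 46.5) and 112-fold (99.6 to 126). Ordered by fold, the pair ranked 4 and 3 of 16441 genes in the breast cancer line and 3 and 2 of 16527 genes in the melanoma line. Both folds were thus larger in the melanoma line, by 2.42 times for HSPA1A (counting interval 2.15 to 2.73) and 2.55 times for HSPA1B (2.24 to 2.90), a difference between lines that 1 library per condition gives no means to test. With total counts per library in place of TMM, the HSPA1A folds were 41.3 and 99.0.

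The lines differed in which gene of the pair was counted more. HSPA1A took 30.7% of the pair's counts in the control library of the breast cancer line (95% exact binomial interval 28.5% to 32.9%) and 30.2% in the CPYPP library (29.9% to 30.6%). In the melanoma line its share was 66.9% (63.6% to 69.9%) and 65.3% (65.0% to 65.6%). The intervals of control and CPYPP overlapped within each line, while those of the lines lay far apart. In the control libraries the level of HSPA1A differed little between lines, at 23.3 CPM in the breast cancer line and 25.03 CPM in the melanoma line, whereas HSPA1B stood at 52.7 and 12.4 CPM, a ratio of the melanoma line to the breast cancer line of 0.235 (0.206 to 0.268). After CPYPP the order of the lines was opposite for the 2 genes, with HSPA1A at 1002 CPM in the breast cancer line and 2608 CPM in the melanoma line, and HSPA1B at 2311 and 1386 CPM.

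The split within the pair rests on how reads common to both genes were counted. Of the 100-base windows along the principal transcript, 69.9% in HSPA1A and 72.7% in HSPA1B occurred letter for letter in a transcript of another gene, for 1666 windows of each in the other gene of the pair. A transcript that overlaps HSPA1B on the same strand and runs past its end (ENSG00000285565) had 3, 74, 0 and 1 counts in the control and CPYPP libraries of the breast cancer line and then those of the melanoma line. The pair's summed counts were 1703, 54773, 887 and 77332 in the same order, which do not depend on how reads were divided between the 2 genes. If reads that map to both were left out, which is not given in the sources used here, these sums and the pair's levels are too low.

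HSPA6 (ENSG00000173110, chr1:161524540-161526894, plus strand, 1 exon) encodes an HSP70 that is found almost solely under stress. Its counts were 12 and 1639 in the control and CPYPP libraries of the breast cancer line and 1 and 67 in those of the melanoma line. The gene was thus near the floor of detection in both control libraries and was counted in both CPYPP libraries. Its fold of 185 (106 to 359) was the highest of all genes in the breast cancer line, and the ratio in the melanoma line was 82.0 with a counting interval from 14.2 to 3286, since it rests on a single control read. Its CPYPP level was far lower in the melanoma line, at 3.46 CPM against 99.2 CPM in the breast cancer line, a ratio of 0.0349 (0.0269 to 0.0446). Per exon length, the CPYPP level of HSPA6 was 42.1 and 1.47 RPKM (CPM per kilobase of exon) in the lines, against 417 and 1085 RPKM for HSPA1A and 918 and 551 RPKM for HSPA1B, so the inducible genes did not keep a fixed proportion to each other across lines. Of the 100-base windows of HSPA6, 27.6% also occur in HSPA7, a neighbouring copy, which had 4 counts in the CPYPP library of the breast cancer line and 0 in the others.

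**Figure D2:**
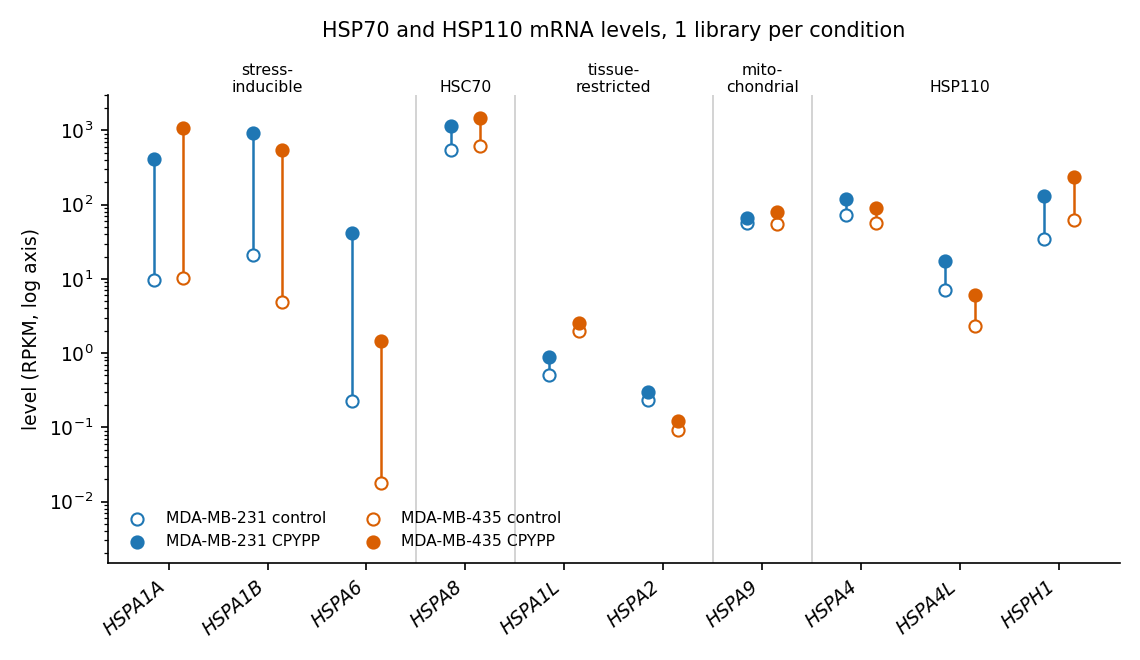
Levels of the 10 genes in CPM per kilobase of exon (RPKM, log axis), with 1 library per condition and therefore no error bar. Open circles are control libraries, filled circles CPYPP libraries, blue is MDA-MB-231 and orange MDA-MB-435, and each line joins the 2 libraries of a cell line. The inducible genes HSPA1A and HSPA1B climb from between 4.93 and 20.9 RPKM to between 417 and 1085 RPKM, while HSPA1L and HSPA2 stay below 3 RPKM in every library.

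HSPA8 (ENSG00000109971, chr11:123057489-123063230, minus strand) was the most abundant member in every library and was higher after CPYPP as well. Its counts were 59764 and 92138 in the breast cancer line and 71001 and 138526 in the melanoma line. Both CPYPP libraries exceeded both controls, by 2.09-fold (2.07 to 2.11) in the breast cancer line and 2.39-fold (2.37 to 2.41) in the melanoma line. In the breast cancer line this lies just past a fold of 2, and total counts per library gave 2.005. Its RPKM ranked 31 and 27 among all genes in the control libraries and 17 and 11 in the CPYPP libraries, where HSPA1A ranked 40 and 18 after having ranked 4485 and 4212. The count table also lists 17 copies of HSPA8, but these held at most 28 counts together in any library, with HSPA8P15 at most at 15, HSPA8P9 at 11 and HSPA8P5 at 10, and no 100-base window of the HSPA8 principal transcript occurred in a transcript of another gene.

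The tissue-restricted members stayed low. HSPA1L (ENSG00000204390, chr6:31809619-31815283, minus strand) had 31 and 40 counts in the breast cancer line and 130 and 136 in the melanoma line. HSPA2 (ENSG00000126803, chr14:64535905-64546173, plus strand), known for its role in spermatogenesis, had 29 and 27 counts and 12 and 13 counts. For HSPA2 the counting intervals of the fold included 1 in both lines, from 0.719 to 2.21 and from 0.558 to 3.18. HSPA1L gave 1.75 (1.07 to 2.89) in the breast cancer line and 1.28 (0.999 to 1.64) in the melanoma line, next to a neighbour on the other strand that changed far more. Where the interval included 1, a change inside it was not detectable at this depth. The HSPA1L interval in the breast cancer line lay above 1 by counting error alone, from 31 and 40 counts. HSPA2-AS1, which overlaps HSPA2 on the other strand, had 6 and 0 counts and 12 and 10 counts, and without strand the reads of the 2 genes cannot be told apart.

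HSPA9 (ENSG00000113013, chr5:138553756-138575675, minus strand), or mortalin, imports and folds proteins in mitochondria. Its counts were 12317 and 10705 in the breast cancer line and 12614 and 15334 in the melanoma line. After scaling this was 550 and 648 CPM and 532 and 792 CPM, so the CPYPP library was higher in each line by 1.18-fold (1.15 to 1.21) and 1.49-fold (1.45 to 1.52). Among the 10 members this was the smallest fold in the breast cancer line, and in the melanoma line HSPA1L and HSPA2 had smaller folds.

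The HSP110 genes, whose products act as nucleotide exchange factors, were all higher after CPYPP and in the same order in both lines. HSPH1 (ENSG00000120694, chr13:31134973-31162388, minus strand), the stress-responsive member, had 6580 and 18033 counts in the breast cancer line and 12381 and 38381 in the melanoma line. HSPA4L (ENSG00000164070, chr4:127781821-127840733, plus strand) had 1815 and 3267 counts and 622 and 1343 counts. HSPA4 (ENSG00000170606, chr5:133052013-133106449, plus strand), the constitutive APG-2, had 8344 and 9913 counts and 6897 and 8824 counts. The folds were 3.71 (3.61 to 3.82) and 3.79 (3.72 to 3.87) for HSPH1, 2.44 (2.30 to 2.58) and 2.64 (2.40 to 2.91) for HSPA4L, and 1.61 (1.56 to 1.66) and 1.57 (1.52 to 1.62) for HSPA4.

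The HSP110 folds were close between the lines. The ratio of the fold in the melanoma line to the fold in the breast cancer line was 1.02 for HSPH1 (0.987 to 1.06), 1.08 for HSPA4L (0.969 to 1.21) and 0.972 for HSPA4 (0.932 to 1.02), with counting intervals that include 1. For HSPA8 it was 1.14 (1.13 to 1.16) and for HSPA9 1.26 (1.22 to 1.31), both above 1 by counting error alone. These intervals hold for the TMM scaling only. With DESeq2 size factors the HSPH1 folds were 3.63 in the breast cancer line and 3.91 in the melanoma line, and with total counts 3.56 and 3.60. Intervals of the ratio under other scalings were not computed. HSPA4L was lower in the melanoma line in either condition, at 26.3 against 81.0 CPM in the control libraries and 69.4 against 198 CPM after CPYPP. HSPH1 was higher there, at 523 against 294 CPM and 1983 against 1091 CPM. The folds of HSPH1 and HSPA4L were thus similar in the lines, while their levels without CPYPP differed. In CPM, HSPH1 rose by 797 in the breast cancer line and 1460 in the melanoma line, and HSPA4L by 117 and 43.1.

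**Figure D3:**
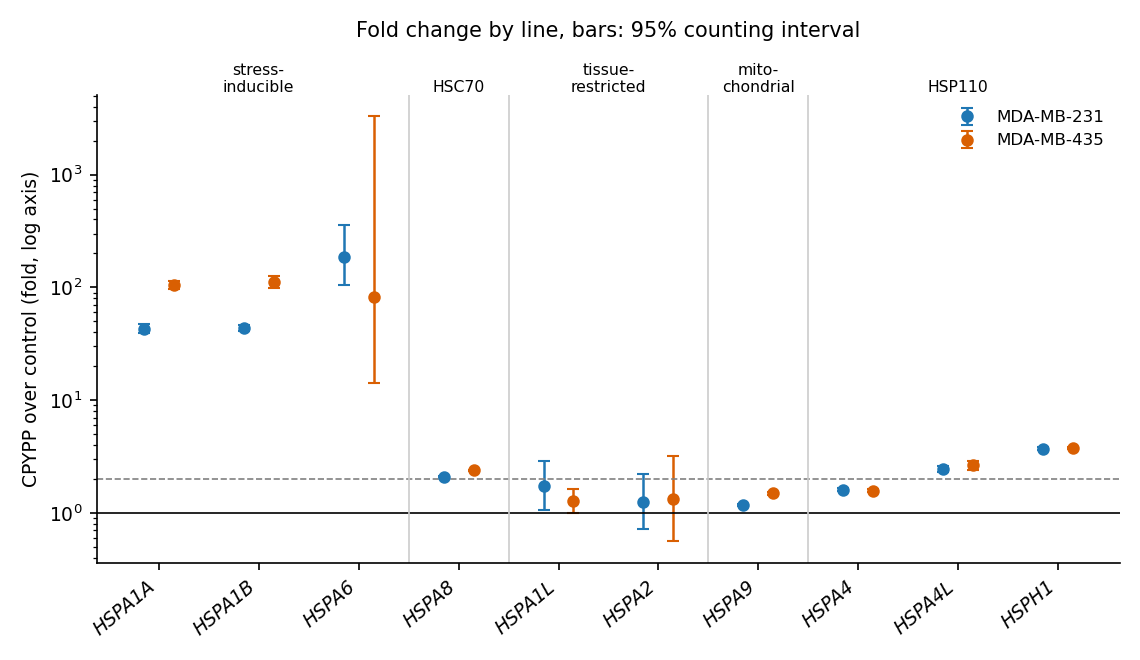
Fold of CPYPP over control for each member in MDA-MB-231 (blue) and MDA-MB-435 (orange), on a log axis. Points are ratios of TMM-normalised counts from 1 library each, bars are 95% exact binomial intervals that cover counting error only, the solid line is no change and the dashed line a fold of 2. The inducible genes lie between 43.0 and 185, HSPA8, HSPA4L and HSPH1 between 2.09 and 3.79, and the other 4 genes below the dashed line.

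Counted over the family, 6 of the 10 members exceeded a fold of 2 in each line, namely HSPA1A, HSPA1B, HSPA6, HSPA8, HSPA4L and HSPH1, and 0 members were below a fold of 1/2. Among all genes with at least 10 counts in a library of the line, 5.32% exceeded a fold of 2 in the breast cancer line and 3.45% in the melanoma line, and 5.52% and 10.9% were below 1/2. The median log2 fold of the 10 members was 1.17 in the breast cancer line and 1.33 in the melanoma line, against -0.02 and -0.09 over all genes. The 3 inducible genes had medians of 5.45 and 6.70, and the 7 others 0.81 and 0.65. HSPA1A, HSPA1B and HSPH1 were singled out by the study from these same libraries, so that their direction is no independent evidence.

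**Figure D4:**
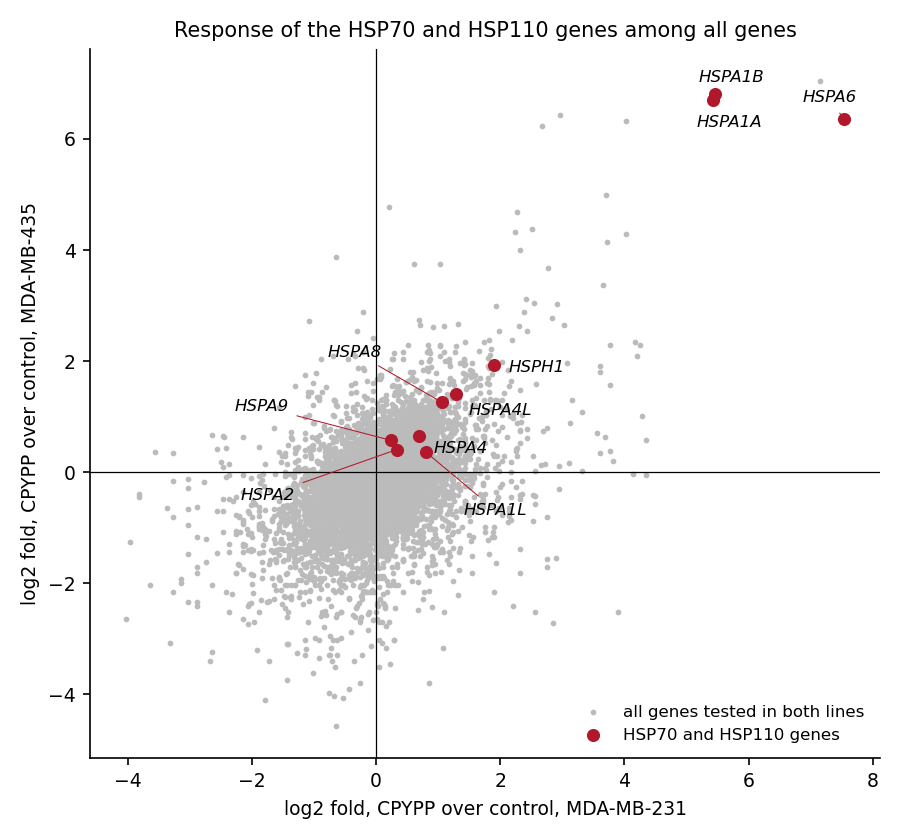
Log2 fold of CPYPP over control in MDA-MB-231 (x axis) and MDA-MB-435 (y axis) for all genes with at least 10 counts in a library of each line (grey) and for the 10 members (red). HSPA1A, HSPA1B and HSPA6 sit at the far upper right, HSPH1, HSPA4L and HSPA8 above 1 on both axes, and HSPA4, HSPA9, HSPA1L and HSPA2 inside it.

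A test was possible only for the change common to both lines, with the cell line as a block. Its error was the difference between the lines' responses, pooled in part over all genes. In this edgeR quasi-likelihood fit, 7 of the 10 members rose and 0 fell at an adjusted p under 0.05, against 4.39% and 2.85% of 16801 genes. The largest common log2 folds were those of HSPA6, at 7.41 (SE 0.299, adjusted p = 5.53e-07), HSPA1B, at 6.09 (SE 0.289, adjusted p = 2.04e-06), and HSPA1A, at 6.07 (SE 0.279, adjusted p = 1.71e-06). HSPH1 rose by 1.91 (SE 0.113, adjusted p = 9.55e-06), HSPA4L by 1.34 (SE 0.115, adjusted p = 0.000131), HSPA8 by 1.16 (SE 0.118, adjusted p = 0.000433) and HSPA4 by 0.67 (SE 0.109, adjusted p = 0.00532). Each of these was higher in both lines.

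HSPA9 did not pass, at 0.40 (SE 0.121, adjusted p = 0.0735), nor did HSPA1L, at 0.54 (SE 0.335, adjusted p = 0.412), or HSPA2, at 0.36 (SE 0.515, adjusted p = 0.767). HSPA9 passed with DESeq2 (adjusted p = 0.0279) and with no filter on low counts in edgeR (adjusted p = 0.00883). The fit has 1 residual degree of freedom per gene, so edgeR draws the error of each gene toward a trend over all genes. The SE and p-values therefore do not rest on a gene's own difference between the lines alone. In DESeq2 the SE was 0.620 for HSPA1A and 0.651 for HSPA1B. With the block left out, so that the difference between the lines entered the error, edgeR called 0 members and 0 of 16801 genes.

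The make-up of the family also changed. The 10 genes together held 0.405% of all counts in the control library of the breast cancer line (95% exact binomial interval 0.403% to 0.408%) and 1.11% in the CPYPP library (1.10% to 1.11%), and 0.461% (0.458% to 0.464%) and 1.44% (1.43% to 1.44%) in the melanoma line. Levels are compared between genes as RPKM, which divides by exon length. In the control libraries HSPA8 made up 73.0% and 76.1% of the family's summed RPKM in the breast cancer line and the melanoma line, and HSPA1A with HSPA1B 4.07% and 1.89%. After CPYPP, HSPA8 made up 40.2% and 41.8% and the pair 46.7% and 46.4%. The pair's share thus came to nearly the same value in both lines from unequal starts.

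Of the rise in summed RPKM, HSPA1A and HSPA1B accounted for 61.9% in the breast cancer line and 59.6% in the melanoma line, HSPA8 for 28.5% and 31.6%, and HSPH1 for 4.51% and 6.40%. With the length of the principal transcript, an alternative chosen after the data were seen, the pair accounted for 47.0% and 43.4% and HSPA8 for 43.0% and 46.3%, so that HSPA8 was then ahead of the pair in the melanoma line. A gene with a small fold can therefore add much mRNA, as HSPA8 did with 599 and 858 RPKM, while HSPA6 with its high fold added 41.9 and 1.45 RPKM. Whether the pair overtook HSPA8 depended on the length used. HSPA8 had 0.861 and 0.902 times the RPKM of the pair after CPYPP with the exon length of the table, which joins all exons of a gene and is 1.97 times that of the HSPA8 principal transcript, but 1.71 and 1.82 times with the principal transcript length. With that length the pair made up 32.1% and 31.0% of the family after CPYPP. The comparison also rests on the counting of reads common to HSPA1A and HSPA1B, since none of the HSPA8 windows was shared.

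**Figure D5:**
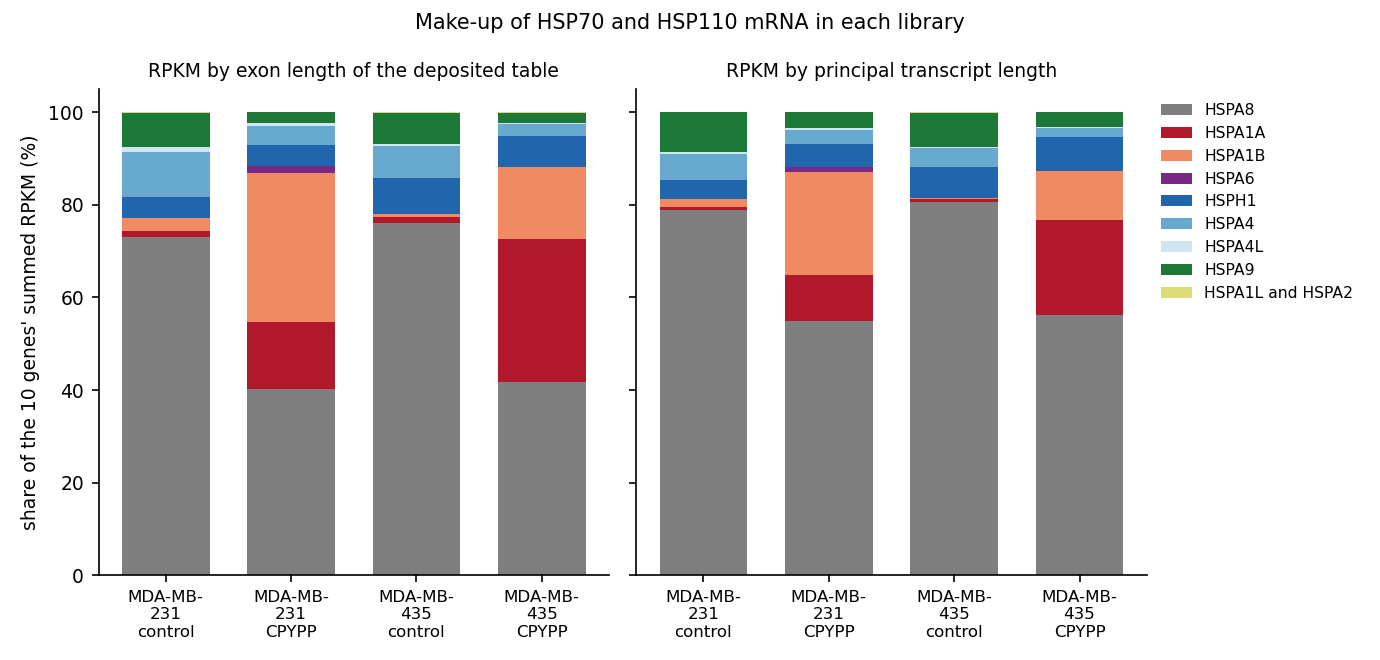
Share of each gene in the summed RPKM of the 10 genes (percent, stacked to 100) in each of the 4 libraries, with RPKM by the exon length of the deposited table on the left and by the principal transcript length on the right. The grey part, HSPA8, shrinks from 73.0% and 76.1% in the control libraries to 40.2% and 41.8% after CPYPP on the left, and the red and orange parts, HSPA1A and HSPA1B, widen in its place. Orange outweighs red in MDA-MB-231 and red outweighs orange in MDA-MB-435.

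The balance of HSP70 to its HSP110 exchange factors also shifted. The cytosolic HSP70 genes HSPA1A, HSPA1B, HSPA6 and HSPA8 together had 5.03 times the RPKM of the HSP110 genes in the control library of the breast cancer line and 9.52 times after CPYPP, and 5.19 and 9.37 times in the melanoma line. With the principal transcript length the ratios were 7.88 and 10.3 in the breast cancer line and 7.54 and 9.33 in the melanoma line, the same direction with a smaller step. Within the HSP110 genes, HSPA4 was above HSPH1 in the control library of the breast cancer line, at 73.4 against 35.0 RPKM, and below it after CPYPP, at 118 against 130 RPKM. In the melanoma line HSPH1 was already higher in the control library, at 62.3 against 57.4 RPKM, and reached 236 against 89.8 RPKM after CPYPP. The table length of HSPH1 is 1.62 times that of its principal transcript, and with the latter length HSPH1 had 0.733 and 1.69 times the RPKM of HSPA4 in the breast cancer line and 1.67 and 4.04 times in the melanoma line.

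In the order of RPKM, HSPA8 led in all 4 libraries. In the control libraries it stood at 550 and 618 RPKM, with HSPA4, HSPA9 and HSPH1 next at between 35.0 and 73.4 RPKM, then HSPA1A and HSPA1B. After CPYPP the second place went to HSPA1B in the breast cancer line, at 918 RPKM, and to HSPA1A in the melanoma line, at 1085 RPKM. HSPA4L, at 7.08 and 2.30 RPKM in the control libraries, stayed below the other HSP110 genes in each library, and HSPA2 was last after CPYPP at 0.297 and 0.122 RPKM. Neighbours in the order overlapped in their counting intervals for HSPA2 and HSPA6 in both control libraries and for HSPA4L and HSPA1L in the control library of the melanoma line. With the principal transcript length HSPA9 moved above HSPA4 in all 4 libraries.

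The lines were also compared with each other within each condition, where 1 library per line leaves no test. In the control libraries 5 of the 10 members differed by more than 2-fold, HSPA1L being 3.97 times higher in the melanoma line (2.66 to 6.07) and HSPA1B, HSPA6, HSPA2 and HSPA4L lower. Among all genes, 23.8% were higher in the melanoma line by this measure and 21.5% lower, so a share of this size is near the background. In the CPYPP libraries HSPA1A and HSPA1L were more than 2-fold higher in the melanoma line and HSPA6, HSPA2 and HSPA4L lower, against 19.8% and 23.4% of all genes.

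Relatives of the family were also read. Of 6 HSP70-like genes outside the list, the endoplasmic reticulum chaperones HSPA5 and HYOU1 and the divergent HSPA12A, HSPA12B, HSPA13 and HSPA14, 0 exceeded a fold of 2 in the breast cancer line and 1 did in the melanoma line, against 5.32% and 3.45% of all genes. The common effect called 3 of the 6 higher and 0 lower, against 4.39% and 2.85% of all genes. HSPA12A had the highest common log2 fold, at 0.93 (SE 0.239, edgeR adjusted p = 0.0430), from 402 and 479 counts in the breast cancer line and only 26 and 58 in the melanoma line, and HSPA12B the lowest, at -0.20 (SE 0.452, adjusted p = 0.862). The difference between the members and these relatives was not tested.

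Partners of HSP70 were read from a list of 26 genes, of which the common effect called 11 higher and 0 lower, against 4.39% and 2.85% of all genes. Of 9 J-domain genes 4 rose, led by DNAJB1, the main partner of inducible HSP70, at 172 and 2277 CPM in the breast cancer line and 229 and 4038 CPM in the melanoma line, a common log2 fold of 3.93 (SE 0.144, edgeR adjusted p = 5.16e-07). The lowest of them was DNAJB5, at -0.65 (SE 0.191, adjusted p = 0.0711). Of 6 exchange factors outside HSP110, 2 rose, led by BAG3, at 2.29 (SE 0.117, adjusted p = 3.40e-06). DNAJB1, BAG3 and another J-domain gene of the list were singled out by the study from these same libraries. Their direction is therefore no independent evidence. Of 4 mitochondrial partners of HSPA9, 2 rose, with GRPEL2 highest at 0.92 (SE 0.213, adjusted p = 0.0279), from 44.3 and 56.3 CPM in the breast cancer line and 63.4 and 176 CPM in the melanoma line.

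Of 3 further partners of HSP70, 2 rose, with STIP1, the adaptor to HSP90, highest at 0.79 (SE 0.112, edgeR adjusted p = 0.00266). The ubiquitin ligase STUB1 was lowest at -0.14 (SE 0.147, adjusted p = 0.652). Of 4 genes for heat shock factors or a protein that binds them, 1 rose, HSF2, at 0.79 (SE 0.151, adjusted p = 0.0119). The mRNA of HSF1, whose activity is known to be controlled mainly on the protein, was at 63.1 and 52.6 CPM in the breast cancer line and 135 and 116 CPM in the melanoma line, a common log2 fold of -0.24 (SE 0.112, adjusted p = 0.254). Within the lines, 4 of the 26 partners exceeded a fold of 2 in the breast cancer line and 6 in the melanoma line, and 0 were below 1/2. Among all genes 5.32% and 3.45% exceeded a fold of 2 and 5.52% and 10.9% were below 1/2. The partners' median log2 folds were 0.33 and 0.41, against -0.02 and -0.09 over all genes.

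Genes with the most similar pattern were sought by the distance between log2 CPM profiles centred over the 4 libraries, a description of 4 points. Closest to HSPA1A among 16801 genes were EID3 (distance 1.16), HMOX1 (1.37), which encodes heme oxygenase 1, and CHAC1 (1.86), which encodes a glutathione-degrading enzyme. HMOX1 had 158 and 16468 counts in the breast cancer line and 443 and 47504 in the melanoma line. HSPA1B, which was higher in the breast cancer line in either condition, was not among these 3. Closest to HSPA8 were FAM53C (0.109), LRIF1 (0.124) and NCOA3 (0.132), and closest to HSPH1 were CHORDC1P4 (0.277), CHORDC1 (0.314), which encodes a partner of HSP90, and DEDD2 (0.343). CHORDC1P4 had at most 51 counts.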

How the data were processed

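Poly(A) RNA of the breast cancer line MDA-MB-231 and of the melanoma line MDA-MB-435 was sequenced as 1 control and 1 CPYPP library each. The authors deposited raw read counts per gene together with exon lengths, in 1 table with no normalization. The submitters' processing notes name cutadapt 1.9.1, HISAT2 2.2.1, HTSeq 0.6.1, DESeq2 and the build GRCh37.p13, while 58241 of 58254 identifiers shared with GENCODE v29 have positions that overlap those of GRCh38, so that coordinates are given as GRCh38. How strand and reads that map to several genes were treated is not given in the sources used here. The culture protocols speak of MDA-MB-435 alone, so the line of each library was taken from its cell line label.

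Counts were scaled by TMM factors from edgeR 4.0.16 in R 4.3.3 (0.961 to 1.05). Fold changes within a line are ratios of scaled counts with 95% exact binomial (Clopper-Pearson) intervals, which cover counting error only, for genes with at least 10 counts in 1 of the 2 libraries. A count of 0 was set to 3 for folds over all genes. No test exists within a line. The common effect was tested in edgeR (quasi-likelihood F-test), with line as blocking factor and Benjamini-Hochberg adjustment over 16801 genes. Its error comes from the difference between the responses of the lines, pooled in part over all genes (biological coefficient of variation 0.121). The p-values do not measure the spread between cultures. The SE was taken from the log2 fold and the F statistic. The block rests on the lines being the same in both conditions and no other pairing is given. DESeq2 1.42.0 was an alternative, beside other scalings, filters, fold limits and a summed HSPA1A and HSPA1B. Promoters are from RefSeq (GRCh38.p14), principal transcripts from GENCODE v29. Python 3.11.15 with pandas 2.3.3, numpy 2.4.6, scipy 1.17.1 and matplotlib 3.10.9 was used for the rest.

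All 10 members are named. Of each partner group, the genes with the largest rise or fall over both lines could be named, and for HSPA1A, HSPA8 and HSPH1 the 3 nearest profiles. The members and lists were chosen with earlier results of these data known. Protein sequences were not used here.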

Additional observations from a re-analysis of the deposited data

How the results depend on the processing

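Of 106 folds of single members recomputed with other scalings or with summed copies, 0 reversed, 21 left the counting interval of the reported value, the largest shift was 1.05 times, and 0 crossed a fold of 2 under another scaling. A limit of 4 in place of 2 left 3 members in each line, the inducible genes. A limit of 1.5 gave 8 members in the breast cancer line and 7 in the melanoma line, and asking for 10 counts in both libraries gave 5 in the melanoma line, where HSPA6 has 1 control count. The share of all genes past these other limits was not counted, so the member counts have no background beside them. For the common effect, the 7 called members became 8 with DESeq2 and with no filter, through HSPA9, and 7 with total counts or upper quartile scaling. With no replicate block, that is with the cell line left out of the fit, edgeR called 0 members. Their common log2 folds were then 6.22 for HSPA1A, 5.83 for HSPA1B, 7.45 for HSPA6, 1.17 for HSPA8, 0.67 for HSPA4, 1.32 for HSPA4L and 1.91 for HSPH1, each with the same sign. The number of genes called moved from 1215 of 16801 genes to 1977 with DESeq2, 1965 with total counts and 1648 with upper quartile scaling. With no filter, 32210 genes were tested and 1896 were called. The differences between lines, and any difference within a line, have no replicate check, and folds of HSPA6 in the melanoma line, HSPA1L and HSPA2 are limited by depth. No leave-one-out was run because each condition has 1 library.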
